A study of Mus musculus with 8 samples.

Results

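The 8 genes Tmem176a, Tmem176b, Tnip3, Crhbp, Gnb4, Ryr2, Emp2 and Slc24a2 were followed through the cell classes of libraries labelled as mouse spleen, in mice with and without Eif3e, a gene for one part of the translation initiation factor eIF3, deleted conditionally. They were taken by symbol from the 32285 genes of the count tables, and all 8 were found there. The genes were selected on measured values of these same libraries: Tmem176a, Tmem176b, Tnip3, Crhbp and Gnb4 on their higher level in cKO pre-germinal center B cells (pre-GCB) of the YFP+ libraries, and Ryr2, Emp2 and Slc24a2 on their higher level in cKO germinal center B cells (GCB) of the same libraries. Both of these YFP+ contrasts are therefore given as a description, with no test for any of the 8 genes. Tests are given for total splenocytes, which are other libraries from the same batches, and for the other cell classes of the YFP+ libraries, which are other cells from the same libraries.

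All mice were 2 months old. The labels give spleen as the tissue of every library, whereas their extraction protocol also names lymph nodes, so that cells from lymph nodes may be among those counted. The cKO mice were Eif3e fl/fl Cγ1Cre Rosa26-YFP LSL, and the control mice were Cγ1Cre Rosa26-YFP LSL, so that both genotypes carried the Cre and the reporter and differed in the floxed gene. The Cre is driven from the Ig γ1 constant region locus, which is transcribed in activated B cells, and YFP marks cells that have expressed it together with their progeny. In each of 2 batches, cells of 2 to 3 mice of 1 genotype were pooled and sorted either as total live splenocytes or as YFP+ cells, which gave 4 groups, 1 for each genotype and sort, of 2 libraries each, named here by batch as replicates 1 and 2. Transcripts were counted with a droplet method that reads their 3′ ends and counts unique molecular identifiers (UMIs), 1 per captured molecule.

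The 8 libraries held 71894780 to 105224903 UMIs each over all deposited barcodes and 9276 to 11652 cells after filtering, with 5250 to 6810.5 UMIs in the median cell. Both cKO libraries of batch 1 contained Xist, the transcript that marks female cells, at 524 UMIs per 1000000 UMIs counted (CPM) in total and 638 CPM in YFP+ cells, beside Y-linked Ddx3y at 72.8 and 52.0 CPM, whereas Xist was at 0.158 to 0.348 CPM in the other 6 libraries. That pool therefore held cells of both sexes, and the count of called genes without it is given beside each comparison tested. Eif3e was at 227 to 289 CPM over all cells of every library. In YFP+ pre-GCB-like cells it was at 273 and 291 CPM in control and at 166 and 169 CPM in cKO, where the groups did not overlap. In the 5 other B cell classes looked up in YFP+ libraries the level was not lower without overlap. It was at 206 and 263 against 294 and 367 CPM in naive B-like and 253 and 297 against 341 and 404 CPM in memory B-like cells, higher in cKO without overlap, and overlapped between genotypes in GCB-like (265 and 297 against 272 and 305 CPM), MZB-like (252 and 298 against 278 and 385 CPM) and plasma cell-like cells (109 and 136 against 110.3 and 119 CPM). A 3′ count does not show whether the deleted exons were present, so these levels do not check the deletion in any class, and cKO here names the genotype on the label. Any 2 libraries shared 51 to 102 cell barcodes of identical sequence, at most 0.974% of the smaller library.

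Cell classes were rebuilt here by clustering, from which the 8 genes were left out, and were named from marker lists, so each name carries "-like". In the sums of pre-GCB-like cells, the 10 pre-GCB markers together made up 1390.1 to 1945 CPM, against 427 to 864 CPM in naive B-like cells. The naive B-like class did not rest on the same clusters in both genotypes: 1 cluster, led by Slc16a10, Maml3 and Rnf144a, held 98.9% of control and 6.11% of cKO naive B-like cells in total splenocytes and 96.8% and 1.03% in YFP+ cells, and 3 others, led by Wfdc17 (with Xist among its 10 leading genes), Lifr and Scn3a, held almost all the rest.

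As background, germinal centers form when activated B cells meet helper T cells, proliferate and mutate their antigen receptors, and pre-GCB are the activated cells on the way there. GCB in turn give rise to memory B cells and to antibody-secreting plasma cells. The 8 genes belong to unrelated families and none is a classical marker of these stages. Tmem176a and Tmem176b encode related four-pass membrane proteins best known from dendritic cells, where they were linked to an immature state. Tnip3 encodes a partner of A20, a ubiquitin-editing enzyme that restrains NF-κB. Gnb4 encodes a β subunit of heterotrimeric G proteins, which pass on signals of chemokine receptors among others. Crhbp encodes a secreted protein that binds corticotropin-releasing hormone. Ryr2 encodes the ryanodine receptor best known as the calcium release channel of the heart, and Slc24a2 encodes a potassium-dependent plasma membrane exchanger of sodium and calcium. Emp2 encodes a four-pass membrane protein of the PMP22 family.

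The label of genes switched on in activated cKO B cells held only in part. Crhbp came closest to it, with 3 UMIs in all over the 4 control libraries. Tmem176a and Tmem176b were abundant in control plasma cell-like, conventional dendritic cell-like and monocyte or macrophage-like cells. Gnb4 was present in control GCB-like, plasmacytoid dendritic cell-like and T cell-like cells. Tnip3 was found in control conventional dendritic cell-like and monocyte or macrophage-like cells of total splenocytes. Ryr2 was also present in control naive B-like cells, a class named from markers of naive cells, whose activation was not tested.

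In the genome (GRCm38), Tmem176b (chr6:48833818-48841496, minus strand) and Tmem176a (chr6:48840919-48847071, plus strand) lie head to head and overlap by 578 bases at their 5′ ends. Tnip3 lies on the same chromosome (chr6:65525313-65634040, plus strand). Ryr2 (chr13:11553102-12106945) and Crhbp (chr13:95431371-95444924) share chromosome 13, and Gnb4 (chr3:32580332-32616585), Slc24a2 (chr4:86983124-87230477) and Emp2 (chr16:10281749-10313968) are alone on theirs, all 5 on the minus strand. Promoter windows of 300 bases, 250 before and 50 after an annotated start, were found in RefSeq (GRCm38.p6) for 7 of the 8 genes, with Gnb4 not matched, and gave 11 windows. Of 5 motifs searched on both strands, the NF-κB-type motif, GGG and CC with 5 bases of any kind between them, stood in 8 of the 11 windows, which overlap one another where a gene has several starts, and in 50.8% of all 32851 windows of that length. The STAT-type motifs, TTC and GAA with 3 or 4 bases between them, the AP-1-type motif TGANTCA and the IRF-type motif, GAAA repeated after 2 bases, stood in 0 of the 11, and in 8.30%, 6.95%, 7.81% and 3.44% of all windows. The 4 windows below are shown because these genes differed in where they were high: the shared 5′ region of the Tmem176 pair, 2 other genes picked in pre-GCB, and Emp2, which was picked in GCB. Capitals mark each match to the NF-κB-type motif on either strand; overlapping matches run together. The windows run 5′ to 3′ on the strand of the gene.

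Tmem176a, chr6:48841233-48841532, plus strand, with the start of Tmem176b at 48841374 on the other strand inside it: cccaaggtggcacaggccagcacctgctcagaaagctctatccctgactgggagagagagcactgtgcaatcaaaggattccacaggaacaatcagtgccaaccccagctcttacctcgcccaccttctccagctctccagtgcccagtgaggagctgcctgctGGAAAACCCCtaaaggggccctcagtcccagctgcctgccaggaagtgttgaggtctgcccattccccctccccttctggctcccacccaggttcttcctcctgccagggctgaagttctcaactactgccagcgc
Tnip3, chr6:65590148-65590447, plus strand: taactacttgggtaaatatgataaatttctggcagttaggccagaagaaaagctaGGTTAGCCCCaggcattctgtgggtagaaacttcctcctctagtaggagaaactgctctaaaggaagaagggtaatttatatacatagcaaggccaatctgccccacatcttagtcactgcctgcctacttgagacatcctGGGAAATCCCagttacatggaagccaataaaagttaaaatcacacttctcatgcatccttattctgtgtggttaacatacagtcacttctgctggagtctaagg
Crhbp, chr13:95444782-95445081, minus strand: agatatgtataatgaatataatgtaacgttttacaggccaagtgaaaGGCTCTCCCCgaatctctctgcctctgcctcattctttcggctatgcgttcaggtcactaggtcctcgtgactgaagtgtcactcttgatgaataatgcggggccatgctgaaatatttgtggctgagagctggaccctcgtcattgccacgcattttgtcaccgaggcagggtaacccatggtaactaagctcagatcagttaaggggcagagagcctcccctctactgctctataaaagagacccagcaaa
Emp2, chr16:10313919-10314218, minus strand: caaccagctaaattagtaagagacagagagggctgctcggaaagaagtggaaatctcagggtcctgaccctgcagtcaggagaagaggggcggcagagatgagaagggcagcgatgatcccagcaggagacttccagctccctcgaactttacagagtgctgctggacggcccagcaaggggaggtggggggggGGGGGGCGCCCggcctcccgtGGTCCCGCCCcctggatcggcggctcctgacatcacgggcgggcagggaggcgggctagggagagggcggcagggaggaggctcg

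In YFP+ pre-GCB-like cells, all 8 genes were higher in both cKO libraries than in either control library. The share of all genes that were so is not given here. Tmem176b stood at 1.97 and 3.83 CPM in control and at 198 and 179 CPM in cKO (log2 difference 6.16), and Tmem176a at 1.72 and 0.958 against 85.2 and 80.9 CPM (5.99). These 2 neighbours were close to each other in size of difference. Gnb4 was at 1.97 and 0.319 CPM in control and at 34.9 and 41.2 CPM in cKO (5.03). Tnip3, the A20 partner, was at 0.246 and 0.319 CPM in control and at 19.5 and 23.2 CPM in cKO (6.33). Crhbp had no UMI in control, in 7194043 UMIs counted over both libraries, and was at 20.3 and 23.8 CPM in cKO. Set against a limit of 3 UMIs over both control libraries, cKO Crhbp was at least 53.2-fold higher.

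The 3 genes picked in GCB were also higher in cKO in this class. Ryr2 was at 4.92 and 6.39 CPM in control and at 97.3 and 59.4 CPM in cKO (log2 difference 3.88). Emp2 and Slc24a2 had no UMI in control, and Emp2 was at 2.89 and 2.43 CPM and Slc24a2 at 4.54 and 2.85 CPM in cKO. With the same limit, these were at least 6.34-fold and 8.72-fold higher. As a frame for these values, 4.61% of 12918 genes were called higher and 4.98% lower in cKO YFP+ pre-GCB-like cells (edgeR quasi-likelihood test, adjusted p under 0.05), so this contrast differed widely beyond the 8 genes.

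**Figure D1:**
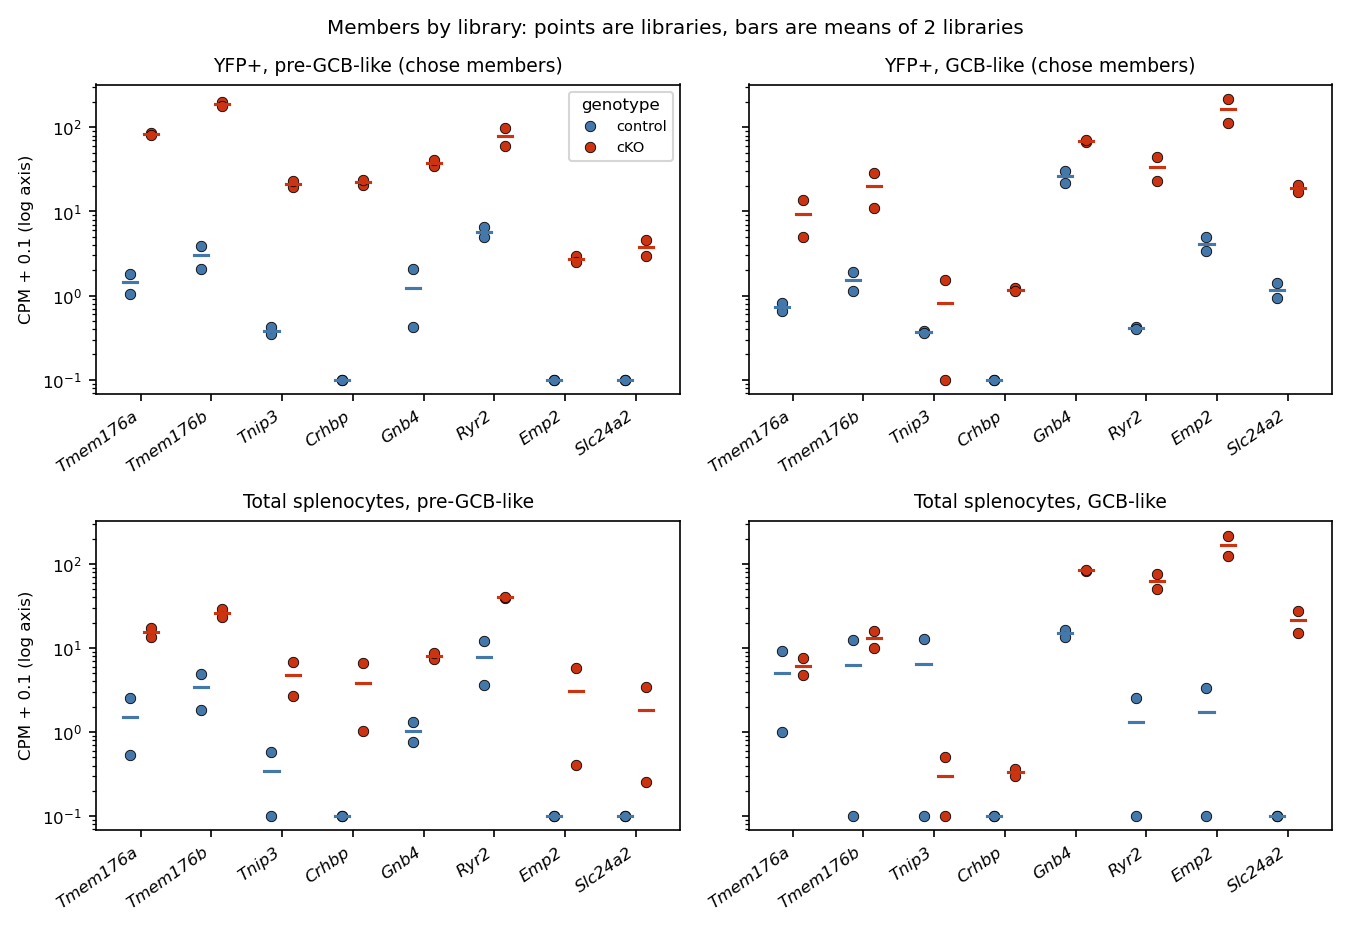
Level of the 8 genes in pre-GCB-like and GCB-like cells; the y axis is CPM + 0.1 on a log scale, points are libraries, and horizontal bars are means of 2 libraries. In YFP+ pre-GCB-like cells every cKO point lies above both control points, from Emp2 at 2.43 and 2.89 CPM to Tmem176b at 179 and 198 CPM, whereas in total GCB-like cells Tmem176a, Tmem176b and Tnip3 overlap between genotypes.

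Total splenocytes, which did not enter the choice, addressed whether the difference was seen in pre-GCB-like cells regardless of YFP. Tmem176a, Tmem176b, Gnb4 and Ryr2 were called higher in cKO, 4 of the 8 genes (edgeR, 2 against 2 libraries, adjusted over all genes). Of the 8 genes, 5 passed the filter on low counts, and 0.516% of all genes tested were called higher. DESeq2 called 5, these 4 and Crhbp, which had no control UMI. Tmem176b was at 4.83 and 1.76 CPM in control and at 28.7 and 23.6 CPM in cKO (a log2 fold change of 3.05 ± 0.35 SE, adjusted p = 0.00584). Tmem176a was at 2.42 and 0.439 CPM in control and at 13.4 and 17.4 CPM in cKO (3.51 ± 0.49, adjusted p = 0.0138). In both genes the cKO libraries lay above both control libraries and below the YFP+ cKO cells of the same class. In control replicate 2, Tmem176a was too low for the filter, and Tmem176b lay about at its limit. Tmem176a thus passed it only through cKO, so its call is no added support, and that of Tmem176b adds little.

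Gnb4 rose from 1.21 and 0.658 CPM to 7.37 and 8.55 CPM (a log2 fold change of 3.13 ± 0.46, adjusted p = 0.0198). Its control levels were too low for the filter, which it passed only through cKO, so its call is no added support. Ryr2 rose from 11.8 and 3.51 CPM to 39.6 and 40.4 CPM (2.46 ± 0.38, adjusted p = 0.0221), a call that was lost with the batch as a replicate block (adjusted p = 0.0954). Tnip3, at 0.483 and 0 CPM in control and 2.61 and 6.75 CPM in cKO, did not pass (4.27 ± 0.94, adjusted p = 0.123), and it passed with the block (adjusted p = 0.00222). With 2 and 0 control UMIs, Tnip3 passed the filter only through cKO, so its call with the block is no added support.

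Crhbp, Emp2 and Slc24a2 did not pass the filter and had no UMI in total control pre-GCB-like cells. In cKO, Crhbp was at 0.921 and 6.60 CPM, Emp2 at 0.307 and 5.70 CPM and Slc24a2 at 0.153 and 3.30 CPM. Over both libraries these were at least 10.99-fold, 8.80-fold and 5.06-fold higher than the limit of 3 control UMIs, but for all 3 genes cKO replicate 2 stood far above replicate 1.

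Leaving out cKO replicate 1, the pool of both sexes, brought the number called in total pre-GCB-like cells to 8. Such a fit leaves 1 library in a group, which is assumed to vary like the pair in the other group, so neither this count nor others without a library below show stability or an effect of the pool. Of the 8, Crhbp, Emp2 and Slc24a2 had no control UMI. Without control replicate 1 or control replicate 2 it was 7 in each case. When classes were instead defined in the control libraries and passed on to cKO cells by nearest neighbours, 0 of the 8 genes were called. Tmem176b was at a log2 fold change of 1.04 (adjusted p = 1.00) and Ryr2 at 1.66 (adjusted p = 0.354). Tmem176a and Gnb4 gave no value in that fit, so for them it is no failed test. The count in this class thus depends on how its cells are drawn.

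The 2 clusters within the pre-GCB-like class carried the genes unequally. One was led by Mreg, Pus7 and Nr6a1, with Polr1b, a subunit of RNA polymerase I, and the other by Tnfsf4, the ligand OX40L, and Fabp5, a fatty acid-binding protein, with the p53 targets Phlda3 and Cdkn1a. Crhbp itself was among the 10 leading genes of the second cluster. In cKO YFP+ cells, Tmem176b was at 269 and 218 CPM in the Tnfsf4-led cluster and at 65.0 and 93.2 CPM in the Mreg-led cluster. Gnb4 differed more, at 50.1 and 56.2 against 6.48 and 7.60 CPM. Tnip3 was at 25.3 and 30.8 against 8.72 and 6.31 CPM, and Crhbp at 26.5 and 26.8 against 8.64 and 17.1 CPM. Ryr2 ran the other way, at 63.8 and 48.7 CPM in the Tnfsf4-led and 160.0 and 83.5 CPM in the Mreg-led cluster.

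The Tnfsf4-led cluster made up 39.5% of pre-GCB-like cells in cKO YFP+ and 27.3% in control YFP+ libraries, and 11.9% and 10.4% in total splenocytes. The difference between genotypes was present within each cluster: in control YFP+ cells Tmem176b was at 2.11 and 5.26 CPM in the Tnfsf4-led and at 1.77 and 2.48 CPM in the Mreg-led cluster. In total splenocytes, Tmem176b in the Tnfsf4-led cluster was at 12.9 and 0.977 CPM in control and at 87.3 and 69.3 CPM in cKO, whereas in the Mreg-led cluster it was at 1.38 and 1.98 against 4.55 and 3.66 CPM. As a ratio, though not in CPM, the gap between YFP+ and total cKO cells was thus narrower in the Tnfsf4-led cluster.

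**Figure D2:**
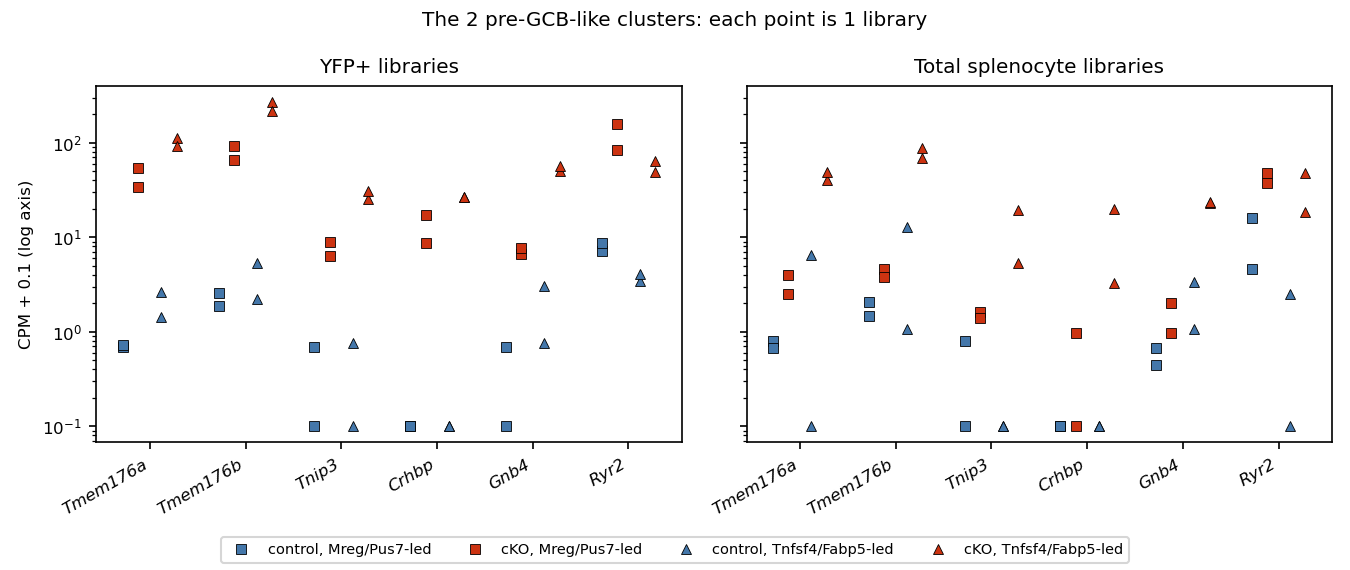
Levels of 6 genes in the 2 pre-GCB-like clusters; the y axis is CPM + 0.1 on a log scale, each point is 1 library, squares are the Mreg-led and triangles the Tnfsf4-led cluster. In cKO YFP+ cells Gnb4 lies at 50.1 and 56.2 CPM in the Tnfsf4-led and at 6.48 and 7.60 CPM in the Mreg-led cluster, whereas Ryr2 is higher in the Mreg-led cluster.

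In YFP+ GCB-like cells, Emp2 was at 3.27 and 4.82 CPM in control and at 111 and 219.8 CPM in cKO (log2 difference 5.36), Slc24a2 at 1.32 and 0.847 against 20.8 and 16.9 CPM (4.19), and Ryr2 at 0.319 and 0.304 against 44.1 and 23.1 CPM (6.76). Gnb4, already present in control GCB-like cells at 22.0 and 30.02 CPM, was at 66.0 and 71.5 CPM in cKO (1.42). The Tmem176 pair was also higher in cKO without overlap, at levels below those of cKO pre-GCB-like cells: Tmem176b was at 1.04 and 1.82 CPM in control and 28.5 and 11.02 CPM in cKO (3.77), and Tmem176a at 0.559 and 0.716 against 13.4 and 4.87 CPM (3.85). Tnip3, at 0.279 and 0.260 against 1.44 and 0 CPM, overlapped, and Crhbp had no UMI in control and was at 1.12 and 1.02 CPM in cKO, at least 25.7-fold higher. Of all genes tested in this contrast, 0.754% were called higher and 0.410% lower, and as the contrast chose 3 of the genes nothing is read from their own calls.

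In total splenocytes, 4 of the genes were called higher in cKO GCB-like cells, where 0.773% of all genes tested were called higher and 1.16% lower and 6 of the 8 passed the filter. Emp2 rose from 3.27 and 0 CPM to 124 and 214 CPM (a log2 fold change of 6.64 ± 0.57, adjusted p = 6.14e-05). Ryr2 rose from 2.45 and 0 CPM to 49.8 and 76.4 CPM (5.63 ± 0.57, adjusted p = 0.000220). Gnb4 rose from 16.3 and 13.4 CPM to 81.7 and 85.3 CPM (2.53 ± 0.28, adjusted p = 0.000287). Slc24a2 had no UMI in control and was at 15.2 and 27.3 CPM in cKO, at least 17.2-fold higher. A gene with no control UMI passes the filter only through the cKO libraries, so its call is no added support. The same held for Emp2, with 4 and 0 control UMIs, and for Ryr2, with 3 and 0, which were too few for the filter. Of the called genes only Gnb4 had UMIs in both control libraries. The 4 calls held under all 14 alternatives run, and without cKO replicate 1 the count was 4.

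Tmem176a and Tmem176b did not pass in total GCB-like cells. Tmem176b was at 12.3 and 0 CPM in control and 16.0 and 9.91 CPM in cKO (a log2 fold change of 1.05 ± 0.73, adjusted p = 0.853). Within each batch cKO Tmem176b lay above control, and it was called without control replicate 1, which left the control library with 0 UMIs (adjusted p = 7.49e-05, with 0.0941 to 1.00 under the other alternatives). Tmem176a was at 8.98 and 0.895 against 7.45 and 4.65 CPM (0.27 ± 0.64, adjusted p = 0.998). Tnip3 did not pass the filter there, at 0 and 12.5 CPM in control against 0 and 0.404 CPM in cKO. The control sums rested on 63 and 50 cells. Within the 3 GCB-like clusters, cKO YFP+ Emp2 was at 156 and 287 CPM in the cluster led by S1pr2, Rgs13 and Tox, at 91.0 and 195 CPM in the cluster led by histone genes of DNA replication and at 112 and 189 CPM in the cluster led by mitotic genes such as Cdkn3 and Nek2. The gene was thus high in cycling and other GCB-like cells alike, against 3.10 to 5.46 CPM in the same clusters of control.

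In plasma cell-like cells of YFP+ libraries, all 8 genes were higher in cKO without overlap and 6 were called, where all 8 passed the filter and 0.774% of all genes tested were called higher. The share of all genes higher without overlap is not given here, so nothing is read from that count. Tmem176a and Tmem176b started from a high control level. Tmem176b rose from 86.6 and 109.9 CPM to 309.6 and 391 CPM (a log2 fold change of 1.86 ± 0.31, adjusted p = 0.00886), and Tmem176a from 57.6 and 65.7 CPM to 208 and 292 CPM (2.06 ± 0.31, adjusted p = 0.00481). Ryr2 rose from 0.218 and 0.0493 CPM to 22.2 and 14.2 CPM (7.03 ± 0.52, adjusted p = 2.65e-05), from almost no signal. Tnip3 rose from 0.218 and 0 CPM to 5.95 and 6.91 CPM (5.84 ± 0.78, adjusted p = 0.00202), and Emp2 from 0.491 and 0.345 CPM to 2.38 and 7.30 CPM (3.56 ± 0.67, adjusted p = 0.0183). Crhbp had no UMI in control and was at 2.78 and 5.76 CPM in cKO, at least 55.3-fold higher, and it passed the filter only through cKO. Ryr2, Tnip3 and Emp2, at 0.491 CPM at most in control, also passed it only through cKO. Their calls are no added support, which leaves those of Tmem176a and Tmem176b. The cKO sums rested on 114 and 93 cells.

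Gnb4 (6.65 and 5.96 against 8.33 and 16.9 CPM, log2 fold change 1.05 ± 0.37, adjusted p = 0.308) and Slc24a2 (0.327 and 0.296 against 1.98 and 2.30 CPM, 2.77 ± 0.75, adjusted p = 0.138) did not pass. Without cKO replicate 1 the count was 7, and without cKO replicate 2 it was 3. Fitting all 8 libraries together left 1 gene called. Tnip3 and Crhbp within this class lay mainly in the smaller of its 2 clusters, led by Hsp90b1 and Creld2 among others, where cKO Crhbp was at 7.20 and 17.2 CPM and Tnip3 at 13.4 and 18.3 CPM, against 0 and 0 CPM and 1.29 and 1.16 CPM in the cluster led by Jchain, Prg2 and Tnfrsf17.

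In total splenocytes, the plasma cell-like and follicular helper T cell (Tfh)-like comparisons were chosen after the levels had been seen. In plasma cell-like cells, Tmem176b was at 82.5 and 37.2 CPM in control and 262 and 495 CPM in cKO, and Gnb4 at 2.10 and 1.77 against 12.7 and 15.3 CPM. In both genes the groups did not overlap, but 0 of the 3 genes that passed the filter were called by edgeR (0.129% of all genes tested were), 3 had an unadjusted p under 0.05 and DESeq2 called 1. The count was 3 when cKO replicate 1 was left out. Gnb4 came closest (a log2 fold change of 2.88 ± 0.56, adjusted p = 0.0754, and 0.0166 with the replicate block). Its control levels were too low for the filter, which it passed only through cKO, so the value with the block is no added support. The control sums rested on 58 and 42 cells.

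Memory B-like cells had enough cells for a test in YFP+ libraries, with 57 and 46 in cKO. Emp2 rose from 1.04 and 1.31 CPM to 25.3 and 58.3 CPM (a log2 fold change of 5.26 ± 0.55, adjusted p = 1.33e-11) and was the only one of the 6 genes passing the filter that was called, where 0.359% of all genes tested were. Its 5 and 7 control UMIs were too few for the filter, which Emp2 passed only through cKO, so this call is no added support. Slc24a2 was at 8.56 and 1.88 CPM in control and 19.5 and 20.1 CPM in cKO (2.12 ± 0.57, adjusted p = 0.0711). Where classes were set by the control libraries, Ryr2 (adjusted p = 0.00411) and Crhbp (adjusted p = 0.00913) were called and Emp2 was not (a log2 fold change of 2.70, adjusted p = 0.0956). Crhbp had 0 and 1 UMIs over all cells of the control YFP+ libraries, so it passed the filter only through cKO and its call is no added support. The count stayed at 1 without cKO replicate 1.

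The share of all genes higher in cKO without overlap is not given here for YFP+ naive B-like cells, a class named from markers of naive cells. In these cells, Crhbp, Gnb4, Tnip3, Slc24a2 and Ryr2 were higher in cKO without overlap. Of these genes, Ryr2 had the highest level in both genotypes. It was at 28.3 and 17.7 CPM in control and 176 and 75.9 CPM in cKO YFP+ cells (a log2 fold change of 2.58 ± 0.41, adjusted p = 0.0497), and at 19.1 and 10.2 CPM in control and 73.9 and 45.8 CPM in cKO total splenocytes (2.12 ± 0.34, adjusted p = 0.107). Groups did not overlap in either sort. The call in YFP+ cells lay near the limit and was lost with all 8 libraries in 1 model. The value in total splenocytes passed with the replicate block (adjusted p = 1.37e-07). The cluster with the highest level was not the same in both cKO replicates. In replicate 1 it was the one led by Scn3a, with Ryr2 at 275 CPM in YFP+ and 160.1 CPM in total splenocytes, and in replicate 2 the one led by Lifr, with 88.8 and 49.99 CPM, where the Scn3a-led cluster stood at 70.9 and 40.6 CPM.

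Crhbp in YFP+ naive B-like cells was at 0 and 0 CPM in control and 3.47 and 4.40 CPM in cKO, at least 19.2-fold higher. Its call makes the count 2, but it passed the filter only through cKO, and Ryr2 was the 1 gene with control UMIs that was called. Of the 8 genes, 7 passed the filter there and 0.424% of all genes tested were called higher. Tnip3 was at 0.775 and 0.605 against 2.37 and 1.36 CPM and Gnb4 at 1.29 and 1.51 against 2.98 and 4.27 CPM. Both were called with the replicate block (adjusted p = 0.0395 and 0.0107), as was Slc24a2 (adjusted p = 0.0320), which brought the count to 5. With 2 and 1 control UMIs, Slc24a2 passed the filter only through cKO, so its call is no added support. Tmem176b, at 4.39 and 6.96 against 6.66 and 6.39 CPM, overlapped between genotypes. Without cKO replicate 1 the count was 3, and with all 8 libraries in 1 model it was 0.

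In total naive B-like cells, 0 of the 5 genes that passed the filter were called by edgeR, where 0.212% of all genes tested were. At an unadjusted p under 0.05 there were 3, DESeq2 called 2, and with the replicate block 3 were called: Gnb4 (adjusted p = 0.0144), Ryr2 and Crhbp, which passed the filter only through cKO. Crhbp was at 0 and 0 CPM in control and 0.6005 and 1.35 CPM in cKO, at least 10.9-fold higher. Without cKO replicate 1 the count was also 3. Tmem176a (2.02 and 2.51 against 2.44 and 2.87 CPM) and Tmem176b (3.13 and 6.11 against 3.35 and 3.83 CPM) showed log2 fold changes of 0.33 ± 0.32 and -0.27 ± 0.37.

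Whether the genotype difference itself differed between activated and naive cells was tested in total splenocytes, with the library as a block. The difference was larger in pre-GCB-like than in naive B-like cells for Tmem176a (log2 3.22 ± 0.49 larger, adjusted p = 6.97e-05), Tmem176b (3.31 ± 0.43, adjusted p = 0.000184) and Tnip3 (4.48 ± 1.05, adjusted p = 0.0106), 3 of the 6 genes that passed the filter, with 1.39% of all genes tested called in that direction. Gnb4 (1.89 ± 0.63, adjusted p = 0.109) and Ryr2 (0.40 ± 0.40, adjusted p = 0.790) did not pass, and for Crhbp the term could not be estimated because both control sums were 0. Both the fit with no replicate block and the fit with classes defined in control libraries gave 0 calls. DESeq2 called Tmem176a and Tmem176b and gave no adjusted p for Tnip3. With 2 and 0 UMIs in control pre-GCB-like cells, Tnip3 passed the filter only through cKO pre-GCB-like cells, so its call is no added support. There were 4 calls without cKO replicate 1. Without control replicate 2 or cKO replicate 2 there were 2, and Tnip3 lost its call without control replicate 2 (log2 2.98, adjusted p = 0.284).

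A test of whether the difference in naive B-like cells was larger in YFP+ than in total libraries called 0 of 7 genes by edgeR and 0 by DESeq2, with 1 (Tnip3) at an unadjusted p under 0.05, and 0% of all 13258 genes tested were called. The count was also 0 without cKO replicate 1 of either sort. The differences were spread from 0.24 for Gnb4 to 2.37 for Slc24a2 on the log2 scale, with SEs from 0.44 to 1.25, Crhbp aside, whose difference could not be estimated.

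**Figure D3:**
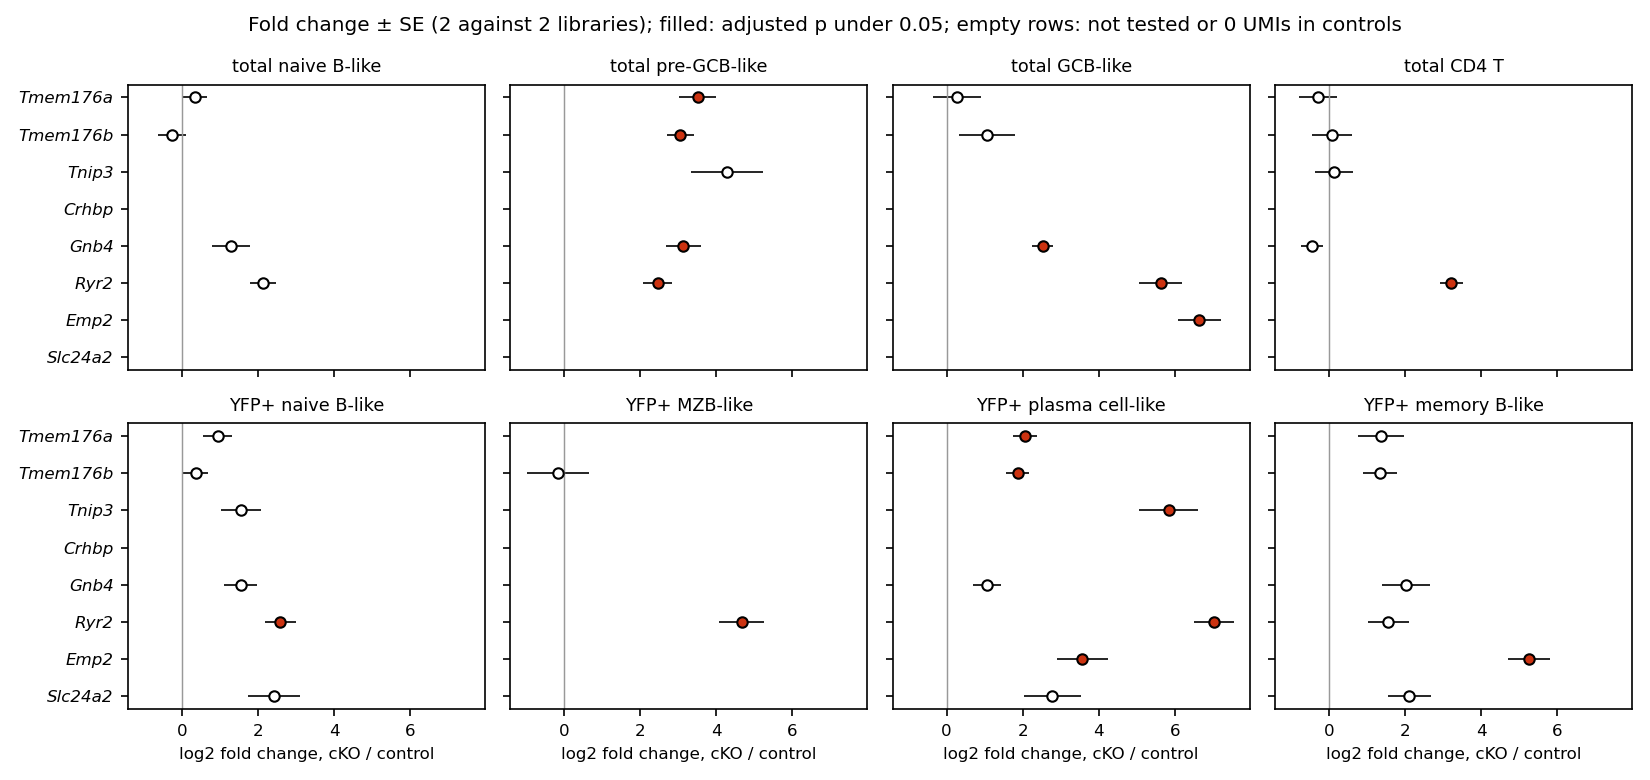
Log2 fold change, cKO over control, with its SE. Tested but not drawn are total MZB-like, plasma cell-like and Tfh-like cells and the tests of whether the genotype difference itself differed. Filled points have an adjusted p under 0.05 (edgeR), and rows are empty where a gene did not pass the filter or had no UMI in control. Tmem176a and Tmem176b are called in total pre-GCB-like and YFP+ plasma cell-like cells, and Ryr2 is the 1 gene called in total CD4 T cell-like cells, at 3.22 ± 0.31.

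Marginal zone B cell (MZB)-like cells, which answer blood-borne antigen without a germinal center, are a B cell class that the choice did not involve. In YFP+ libraries Ryr2 rose from 0.551 and 0.303 CPM to 9.71 and 14.1 CPM (a log2 fold change of 4.67 ± 0.60, adjusted p = 0.00219), 1 of 2 genes that passed the filter, against 0.0475% of all genes tested. Its 4 and 2 control UMIs were too few for the filter, which Ryr2 passed only through cKO, so this call is no added support. In total splenocytes Ryr2 was at 1.03 and 1.48 CPM in control and 5.41 and 4.001 CPM in cKO (1.91 ± 0.44, adjusted p = 0.516), the 1 gene of the 8 that passed the filter, with 0.0355% of all genes called. This was 0 calls by edgeR and 0 by DESeq2, with 1 at an unadjusted p under 0.05, and Ryr2 passed with the replicate block (adjusted p = 0.000895) and where classes were set by the control libraries (adjusted p = 0.0287). In control replicate 1 Ryr2 was too low for the filter, which it passed only through cKO, so its call with the block is no added support. Without cKO replicate 1 the count was 1 in YFP+ and 0 in total MZB-like cells.

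Ryr2 was also called in the sum over CD4 T cell-like cells, outside the B lineage. In total CD4 T cell-like cells it went from 1.67 and 1.18 CPM to 14.0 and 15.2 CPM (a log2 fold change of 3.22 ± 0.31, adjusted p = 0.00601), the only one of 5 genes passing the filter that was called, in a contrast where 3.21% of all genes tested were called higher, and the count was 1 without cKO replicate 1. The CD4 T cell-like class was not made up of the same cells in both genotypes. Tfh-like cells were 41 of 1332 and 21 of 1302 of its control cells and 365 of 1425 and 680 of 1944 of its cKO cells, and they held 86 of 129 and 198 of 220 of its Ryr2 UMIs in cKO. Naive CD4 T cell-like cells also lay in different clusters, with 98.8% of them in control in the cluster led by Igfbp4 and 70.8% in cKO in the one led by Efna5. The part of this make-up in the Ryr2 call was not tested. Tfh-like cells stood at 2.84 and 6.24 CPM in control, which was 1 UMI in each library, and 34.2 and 33.5 CPM in cKO. Ryr2 thus passed the filter in Tfh-like cells only through cKO, so a call there is no added support. Regulatory T cell-like cells stood at 8.26 and 6.56 against 19.0 and 5.85 CPM, overlapping between genotypes, and naive CD4 T cell-like cells at 0.184 to 0.471 CPM in all 4 libraries. The Tfh-like comparison, added after the levels had been seen, did not pass (3.15 ± 0.71, adjusted p = 0.0686), with 0.131% of all genes called, 1 at an unadjusted p under 0.05 and 0 by DESeq2, and it passed without control replicate 2 but not without cKO replicate 1. The 7 B cell markers together made up 99.8 to 116 CPM in control and 101 to 125 CPM in cKO Tfh-like cells, and 103 to 139 and 103 to 119 CPM in CD4 T cell-like cells, overlapping between genotypes.

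Across classes with at least 20 cells in each library of a group, each gene had its own order of levels. Tmem176b in control total splenocytes was highest in conventional dendritic cell-like cells (324 and 687 CPM), followed by neutrophil or basophil-like (79.1 and 276 CPM), monocyte or macrophage-like (63.9 and 204 CPM), plasma cell-like (82.5 and 37.2 CPM) and γδ or NKT cell-like cells (50.8 and 63.0 CPM), of which the last 4 overlapped with their neighbours in this order. In cKO total splenocytes the order began with conventional dendritic cell-like (375 and 722 CPM) and plasma cell-like cells (262 and 495 CPM), which overlapped. Tmem176a followed the same order at the top, with 232 and 473 CPM in control and 277 and 508 CPM in cKO conventional dendritic cell-like cells. Both genes overlapped between genotypes in these dendritic and myeloid classes of total splenocytes, where libraries of batch 2 mostly stood above those of batch 1. Within batches, cKO Tmem176b was above control in conventional dendritic cell-like cells in both, and in monocyte or macrophage-like cells above it in batch 1 (90.1 against 63.9 CPM) and below it in batch 2 (175 against 204 CPM). Tnip3 was likewise highest in conventional dendritic cell-like cells, at 14.8 and 52.8 CPM in control and 33.3 and 111 CPM in cKO. These ranges overlap across batches, whereas within each batch cKO was above control, as it was in monocyte or macrophage-like cells (4.19 and 24.7 against 6.82 and 65.9 CPM). In B1-like cells of total splenocytes Tnip3 was lower in cKO without overlap (6.86 and 5.25 against 2.88 and 2.54 CPM). The same held in regulatory T cell-like, γδ or NKT cell-like and Th1 or other effector CD4 T cell-like cells. In CD8 T cell-like and Tfh-like cells it was higher in cKO without overlap. The difference was not tested in these classes.

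Gnb4 in control total splenocytes was highest in plasmacytoid dendritic cell-like cells (42.6 and 48.1 CPM), then neutrophil or basophil-like (24.5 and 17.6 CPM), conventional dendritic cell-like (18.7 and 13.8 CPM), regulatory T cell-like (15.7 and 17.5 CPM) and GCB-like cells (16.3 and 13.4 CPM). The last 4 overlapped with their neighbours. In cKO, GCB-like cells led, at 81.7 and 85.3 CPM, above plasmacytoid dendritic cell-like cells at 61.03 and 37.9 CPM. Ryr2 in control total splenocytes was highest in naive B-like cells (19.1 and 10.2 CPM), which overlapped with pre-GCB-like cells (11.8 and 3.51 CPM), and had no UMI in plasma cell-like and B1-like cells. In YFP+ monocyte or macrophage-like cells, it had no UMI in control and 74 and 3 UMIs in cKO, from 118 and 20 cells, which was 112 and 27.4 CPM. In cKO total splenocytes naive B-like (73.9 and 45.8 CPM), GCB-like (49.8 and 76.4 CPM), pre-GCB-like (39.6 and 40.4 CPM), interferon-response B-like (37.7 and 36.1 CPM) and Tfh-like cells (34.2 and 33.5 CPM) led, and of these 5 only the first 2 overlapped. Memory B-like cells, with 13 cells in replicate 1 and 44 in replicate 2, stood at 54.3 and 52.5 CPM in cKO total splenocytes and were left out of this order by the limit on cells.

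Emp2 outside the B lineage was highest, among named classes of total splenocytes, in neutrophil or basophil-like cells (0 and 15.6 CPM in control and 11.7 and 10.96 CPM in cKO). Slc24a2 outside B cells stood out in NK cell-like cells, at 7.95 and 16.7 CPM in control and 14.0 and 0 CPM in cKO, which overlapped. Crhbp had 2 UMIs over both control total libraries, both in transitional B-like cells, and 1 in control YFP+ cells. In cKO YFP+ cells it was highest in pre-GCB-like cells among these classes, followed by plasma cell-like (2.78 and 5.76 CPM), naive B-like (3.47 and 4.40 CPM) and interferon-response B-like cells (1.02 and 6.36 CPM), which overlapped.

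**Figure D4:**
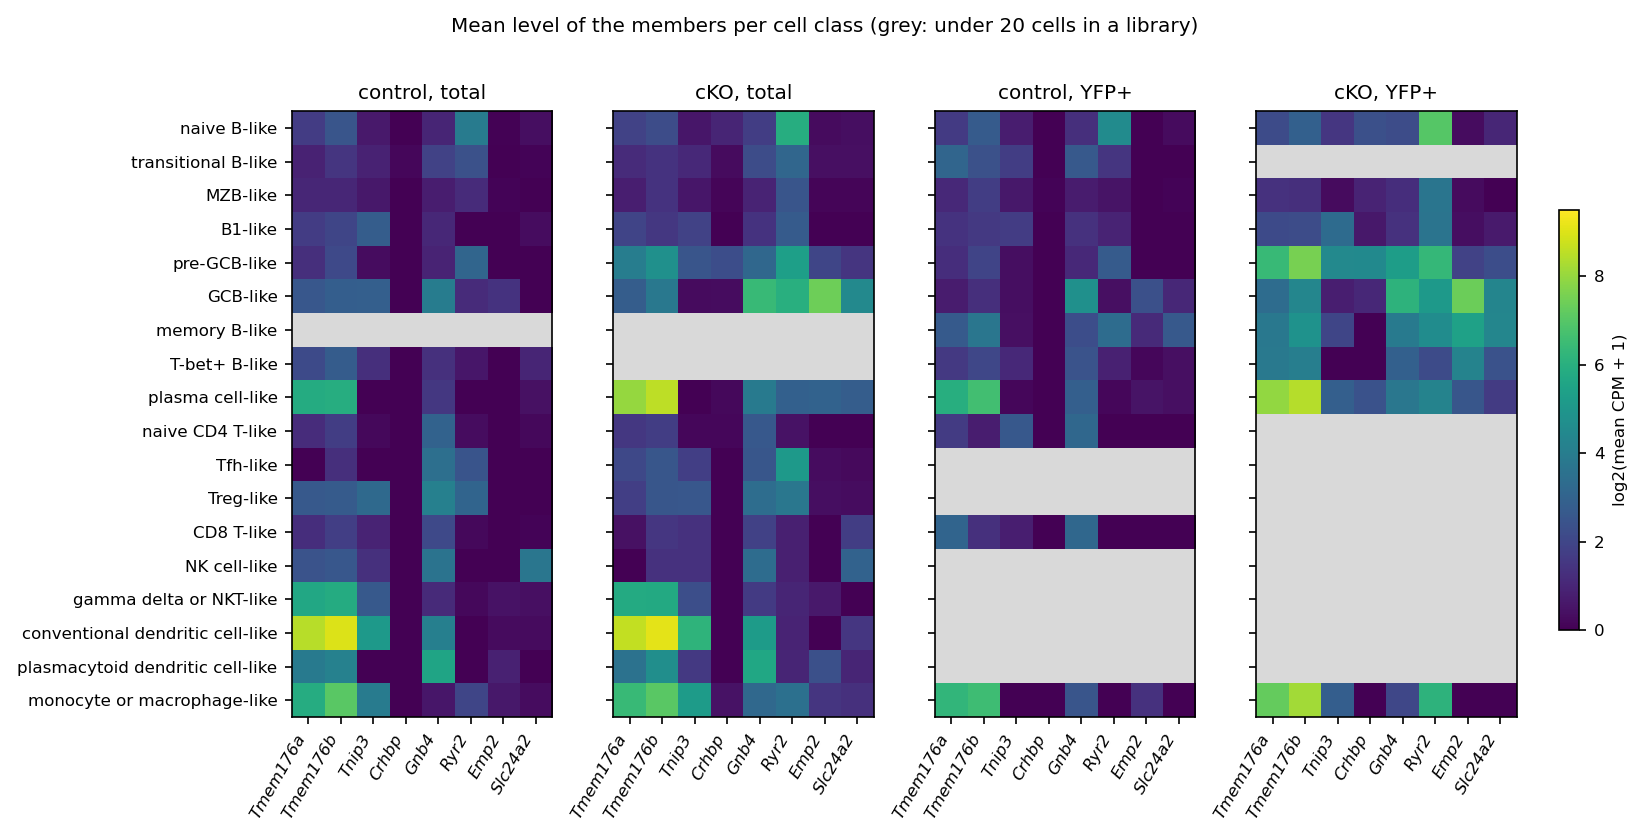
Mean level of the 8 genes in 18 cell classes; color is log2(mean CPM + 1) of 2 libraries, each panel is 1 group, and grey marks classes with under 20 cells in a library. Tmem176b is bright in conventional dendritic cell-like cells of both genotypes (control 324 and 687 CPM, cKO 375 and 722 CPM), and Emp2 is bright in cKO GCB-like cells.

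The 7 T cell markers summed to 20.4 to 33.5 CPM in control and 29.1 to 32.9 CPM in cKO YFP+ pre-GCB-like cells, and the 8 conventional dendritic cell markers to 27.8 to 31.0 and 19.4 to 34.1 CPM, overlapping between genotypes while Tmem176b differed. In YFP+ plasma cell-like cells the conventional dendritic cell markers summed to 26.5 to 26.9 CPM in control and 16.1 to 27.0 CPM in cKO and the 11 monocyte or macrophage markers to 264 to 381 and 288 to 322 CPM. The 8 plasma cell markers themselves made up 33444 to 37150 CPM in control and 37155 to 60046 CPM in cKO, and their part in the result was not tested.

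The share of cells with at least 1 UMI of a gene was compared after thinning each cell to 3000 UMIs. Tmem176b was found in 19.3% (95% Wilson interval 17.6 to 21.1) and 18.9% (17.2 to 20.7) of cKO YFP+ pre-GCB-like cells, and in 0.643% and 1.22% of the control cells. In naive CD4 and CD8 T cell-like cells, which serve as a background, it was 0 to 0.878%, and the control shares lay near that range. This background leaves out YFP+ cKO replicate 2, which held 7 naive CD4 and 5 CD8 T cell-like cells, so 1 of the libraries compared has no such value. Before thinning, the cKO shares were 34.6% and 36.9%, with median depths of 11219 and 14997 UMIs in cKO and 8796 and 5715.5 UMIs in control and 3543 to 7895 UMIs in the T cells. At 3000 UMIs, 29 and 10 cKO and 8 and 41 control cells were too shallow and were left out. In total splenocytes the shares of pre-GCB-like cells were 0.279% and 0.605% in control and 1.74% and 2.07% in cKO. In plasma cell-like cells of YFP+ libraries, the shares were 19.3% and 24.4% in control and 36.6% and 52.7% in cKO. These intervals cover counting error only.

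Emp2 was found in 26.1% and 44.1% of cKO and in 1.03% and 1.31% of control YFP+ GCB-like cells, against 0% in the T cells. Gnb4 was found in 17.5% and 19.3% of cKO and 6.93% and 8.42% of control YFP+ GCB-like cells, with 0.862 to 2.63% in the T cells. Ryr2 was found in 29.7% and 16.6% of cKO and 6.33% and 3.86% of control YFP+ naive B-like cells, with 0 to 0.526% in the T cells. Of the control YFP+ naive B-like cells of replicate 2, only 803 of 2271 reached 3000 UMIs. In each of these 3 genes the cKO shares lay above the control shares in both libraries.

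**Figure D5:**
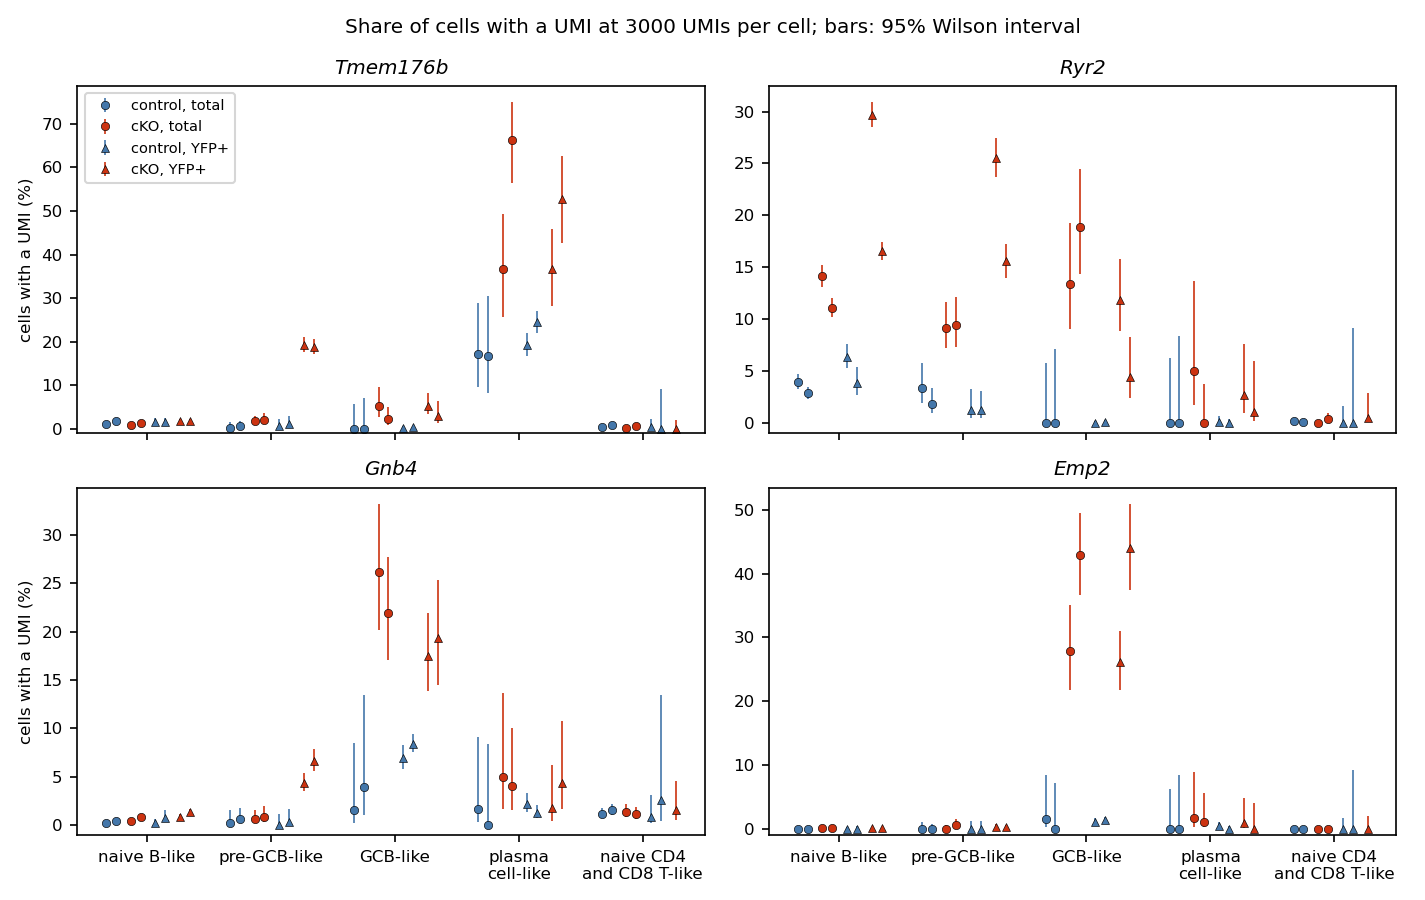
Share of cells with at least 1 UMI of 4 genes (y axis, percent) at 3000 UMIs per cell, by cell class; each point is 1 library with its 95% Wilson interval. Tmem176b is at 19.3% and 18.9% in cKO YFP+ pre-GCB-like cells and at 1.74% and 2.07% in those of total splenocytes, and Emp2 is highest in cKO GCB-like cells of both sorts.

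The genes were not spread evenly over cKO cells. With cells thinned to 8000 UMIs, 52.5% and 52.7% of 1351 and 1468 cKO YFP+ pre-GCB-like cells had a UMI of at least 1 of Tmem176a, Tmem176b, Tnip3, Crhbp and Gnb4, 32.1% and 31.8% of at least 2, and 13.0% and 13.1% of at least 3. The same shares for at least 1 of the 5 were 4.05% and 2.99% of 173 and 134 control YFP+ cells, and for at least 2 they were 0%. In total splenocytes at least 1 was found in 10.6% and 13.5% of cKO and 4.04% and 2.04% of control cells.

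Tmem176b was found in 80.3% and 79.7% of cKO YFP+ pre-GCB-like cells with Tmem176a and in 22.3% and 20.1% of those without. Gnb4 and Tmem176b also went together, with Tmem176b in 77.1% and 71.6% of cells with Gnb4 and 33.4% and 30.9% of those without, and this held inside the Tnfsf4-led cluster, where Gnb4 was in 29.8% and 32.7% of cells with Tmem176b and 7.61% and 11.3% of those without. Ryr2 was found in 39.9% and 32.2% of cells with Tmem176a and in 39.8% and 30.9% of those without. In the Mreg-led cluster, however, Ryr2 was in 74.2% and 46.8% of cells with Tmem176b and in 40.8% and 32.4% of those without. These are cells of the same libraries, given as a description.

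The ratio of Tmem176b to Tmem176a UMIs was 1.35 to 2.33 in pre-GCB-like, 2.12 to 2.55 in GCB-like, 0.894 to 1.85 in plasma cell-like, 1.35 to 1.90 in conventional dendritic cell-like and 0.893 to 1.14 in γδ or NKT cell-like sums, taken over sums with at least 20 UMIs of Tmem176a. Over 69 sums of B-lineage classes by library with at least 50 cells, which share the 8 libraries, Tmem176a and Tmem176b had a Pearson r of 0.947 on log2(CPM + 1), Emp2 and Slc24a2 one of 0.899, Gnb4 and Emp2 one of 0.809 and Gnb4 and Slc24a2 one of 0.724. Crhbp was most like Ryr2 among the 8 (0.587). Beyond the 8, the genes most like Tmem176a were Arfgef3 (0.867), Plcd1 (0.860) and Tmed2 (0.860), the same 3 as for Tmem176b, where Arfgef3 led with 0.837. Those most like Crhbp were Scn3a, which encodes a sodium channel subunit (0.887), Gm39323 (0.868) and Gm32255 (0.8504), and most like Ryr2 were Rasa2 (0.793), St7 (0.764) and Samsn1 (0.761). For Gnb4 they were Ido1 (0.853), A930038B10Rik (0.839) and Irak1bp1 (0.828), for Emp2 Ephb2 (0.847), Arhgap8 (0.844) and Tmtc1 (0.840), for Slc24a2 B630019K06Rik (0.794), Igsf3 (0.778) and Gpat2 (0.770), and for Tnip3 Fmnl2 (0.690), Aebp1 (0.655) and Lad1 (0.624). All of these are correlations over sums of the same libraries and carry no test.

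Relatives of the 8 genes were counted by family, beside the share of all genes called in the same contrast. Of 7 MS4A-type genes, which encode four-pass proteins like the Tmem176 pair, 6 passed the filter in YFP+ pre-GCB-like cells, where 4.61% of all genes tested were called higher and 4.98% lower, with Ms4a6c higher in cKO (a log2 fold change of 1.41, adjusted p = 0.00207) and Ms4a4b (-2.98, adjusted p = 0.00599) and Ms4a4c (-1.41, adjusted p = 0.00521) lower. In total GCB-like cells, where 1.16% of all genes were called lower, 2 of 5 were lower, Ms4a6c (-1.88, adjusted p = 0.0220) and Ms4a4c (-1.67, adjusted p = 0.00873), so Ms4a6c took opposite directions in these classes. Of 12 genes of the A20 and TNIP ubiquitin system and of the NF-κB factors it restrains, all passed the filter in YFP+ pre-GCB-like cells and 3 rose, against the 4.61% called higher among all genes: Otulin, which removes linear ubiquitin chains (1.67, adjusted p = 0.00173), Tnip2, a paralog of Tnip3 (0.90, adjusted p = 0.0382), and, named here after its value was seen, Nfkbia, which encodes IκBα (0.78, adjusted p = 0.0473). Rel, an NF-κB subunit, was lower (-0.78, adjusted p = 0.0414). In both sorts of GCB-like cells 0 of the 12 were called, where at most 1.16% of all genes were called in either direction.

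Of 17 other G protein subunit genes, 13 to 14 passed the filter in pre-GCB-like and GCB-like cells of both sorts and 0 were called in those 4 comparisons. Of all genes, 0.516% were called higher and 0.0368% lower in total pre-GCB-like, 0.773% and 1.16% in total GCB-like, and 0.754% and 0.410% in YFP+ GCB-like cells, shares at which 0 calls says nothing about a family of this size. Gng12 rose in YFP+ naive B-like cells, where 0.424% of all genes were called higher (a log2 fold change of 1.64, adjusted p = 0.0417) and Gnaq in total CD4 T cell-like cells (1.62, adjusted p = 0.0459). Of 23 genes of calcium release, stores and exchange, 17 passed the filter in YFP+ pre-GCB-like cells, where 4.98% of all genes were called lower, and 1 was lower, Atp2a3, a pump that refills the calcium store (-0.81, adjusted p = 0.0268). In total CD4 T cell-like cells, where Ryr2 rose and 3.21% of all genes were called higher, 2 of 18 were higher: Slc24a3, a relative of Slc24a2 (3.66, adjusted p = 0.00980), and Atp2b4, a plasma membrane calcium pump (1.44, adjusted p = 0.0439). None of 6 corticotropin-releasing hormone family genes, receptors included, passed the filter in any comparison, and of 4 EMP and PMP22 genes 1 or 2 passed it and 0 were called in pre-GCB-like or GCB-like cells. In the test of pre-GCB-like against naive B-like cells of total splenocytes, where 1.39% of all genes had a larger and 1.63% a smaller difference, 6 relatives were called. The difference was larger for Nfkbia (log2 0.84, adjusted p = 1.18e-06), Orai2, a calcium channel subunit (0.82, adjusted p = 0.00844), and Emp3 (0.48, adjusted p = 0.0159), and smaller for Gnaq (-0.53, adjusted p = 0.00781), Ms4a7 (-3.12, adjusted p = 0.0356) and Ms4a4c (-0.35, adjusted p = 0.0445).

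The nearest annotated genes were looked up in the same cells. In YFP+ pre-GCB-like and GCB-like cells, the neighbours Mfn1 and Actl6a of Gnb4, Acer2 of Slc24a2, Mtr of Ryr2 and Aggf1 of Crhbp passed the filter and were not called. Next to Emp2, Atf7ip2 was at 1.84 and 0.499 CPM in control and 3.997 and 4.36 CPM in cKO YFP+ GCB-like cells (a log2 fold change of 1.96 ± 0.58, adjusted p = 0.224), higher in cKO without overlap but not called. The others, among them Ndnf beside Tnip3 and both neighbours of the Tmem176 pair, were at 0.521 CPM at most. Gm37640, annotated antisense to Gnb4 over 2653 bases, was at 0.512 CPM at most and was not tested, with 0 and 0 CPM in control and 0.231 and 0.325 CPM in cKO YFP+ pre-GCB-like cells. The strand setting of the counting was not stated, and reads from the 578 overlapping bases of Tmem176a and Tmem176b could be counted for either gene.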

How the data were processed

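The authors deposited 1 matrix of UMI counts per library, not normalized, with gene and barcode lists (32285 genes, 83967 barcodes in all). The genome build was GRCm38 (mm10) per the submitters' processing notes, with the aligner, annotation and strand setting not given in the sources used here. From these deposited counts, cells with over 200 UMIs, over 100 genes and at most 10% mitochondrial UMIs were kept (83704 cells). Counts were scaled to 10000 per cell, and 2000 variable genes, with the 8 genes, their relatives and the check genes left out, gave 30 components, a graph of 20 neighbours and Leiden clusters at resolution 1 (python 3.11.15, igraph 0.11.9), first over all cells and then within B cells and within T and NK cells. Clusters were named from marker lists with at least 3 detected markers; the lowest accepted score (0.3) was set after seeing the clusters and before the 8 genes were tested, and 3.86% of cells stayed unnamed. Doublets were kept, except in an alternative without the 8% of cells with the highest doublet scores.

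Counts were summed per class and library, with at least 20 cells in each, and tested with edgeR 4.0.16 (quasi-likelihood, robust, TMM factors, filterByExpr, R 4.3.3) with Benjamini-Hochberg adjustment over all genes tested, calling genes at an adjusted p under 0.05. DESeq2 1.42.0 was an alternative. Steps were tested on simulated data. The 8 genes, the gene lists and the comparisons were chosen with earlier results of these data known. Named were the 8 genes, check genes, up to 3 called genes per list of relatives, the 3 genes most alike in pattern and the nearest neighbours. Alternatives were RLE size factors, no filter, DESeq2, a replicate block, all 8 libraries in 1 model, leaving out each library, resolutions 0.5 and 1.5, no likely doublets, over 1000 UMIs with at most 5% mitochondrial UMIs, and classes defined in control libraries.

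The batch number in the labels pairs the libraries: deviations of libraries with the same number from their group means correlated in each of 13 comparisons (r from 0.373 to 0.863). The genotype comparisons left this pairing out unless a replicate block is named. Each library is a pool of mice, so that no p-value measures the spread between single mice. The edgeR fits share dispersion over genes, so the p-values do not rest on the 2 pools of 1 gene alone. No 2 libraries of a group agreed within sampling noise.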

Additional observations from a re-analysis of the deposited data

Results flagged for a closer look

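The difference between genotypes was itself larger in pre-GCB-like than in naive B-like cells of total splenocytes for Tmem176a (log2 3.22 larger), Tmem176b (3.31) and Tnip3 (4.48), by the test of the difference with the library as a block (edgeR, adjusted p = 6.97e-05, 0.000184 and 0.0106). With no replicate block and with classes defined in control libraries 0 of these were called, and Tnip3 also lost its call without control replicate 2 (edgeR, adjusted p = 0.284) and had none in total pre-GCB-like cells themselves (edgeR, adjusted p = 0.123). Tnip3 had 2 and 0 UMIs in control pre-GCB-like cells and passed the filter only through cKO pre-GCB-like cells, so its call is no added support. Tmem176a rose in cKO pre-GCB-like cells from 2.42 and 0.439 CPM to 13.4 and 17.4 CPM and stood at 2.02 and 2.51 against 2.44 and 2.87 CPM in naive B-like cells. The naive B-like cells of the 2 genotypes came from different clusters, and the part of that in the result was not tested.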

How the results depend on the processing

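The 4 calls in total GCB-like cells, the Ryr2 call in total CD4 T cell-like cells and the Ryr2 call in YFP+ MZB-like cells kept their number under each alternative run, apart from 5 calls in GCB-like cells with no filter and 4 to 6 there without 1 library. Of these calls, those of Emp2, Ryr2 and Slc24a2 in GCB-like cells and of Ryr2 in MZB-like cells were of genes that passed the filter only through cKO. Shares of all genes called are given for the main fits alone, so changes in count under an alternative are not read as results about the 8 genes. Elsewhere the number of the 8 genes called moved. In total naive B-like cells it went from 0 to 2 with no filter, 2 with DESeq2, 3 with the replicate block and 1 to 3 without 1 library. In total pre-GCB-like cells it went from 4 to 8 with no filter, 0 with classes defined in control libraries and 4 to 8 without 1 library. With classes defined in control libraries, Tmem176a and Gnb4 gave no value in total pre-GCB-like cells. In total MZB-like cells the number called went from 0 to 1 with no filter, 1 with the replicate block and 1 with classes defined in control libraries. In YFP+ naive B-like cells it went from 2 to 1 with RLE size factors, at resolution 0.5 or without likely doublets, 5 with the replicate block and 0 with all 8 libraries in 1 model. In YFP+ plasma cell-like cells it went from 6 to 1 with all 8 libraries and 3 to 7 without 1 library, and in YFP+ memory B-like cells from 1 to 2 where control libraries set the classes. In total plasma cell-like cells it went from 0 to 6 with no filter, 1 with DESeq2, 1 with the replicate block and 1 to 3 without 1 library, and in total Tfh-like cells from 0 to 1 with no filter, at resolution 1.5 or with classes defined in control libraries, and 0 to 1 without 1 library. The test between pre-GCB-like and naive B-like cells went from 3 to 0 with no replicate block, 0 with classes defined in control libraries and 2 to 4 without 1 library. The median fitted log2 difference of the genes was 6.24 in YFP+ pre-GCB-like cells (5.38 if the 3 genes that had no control UMI are set at their lower bound), 5.30 with classes defined in control libraries and 6.12 to 6.69 without 1 library, and in YFP+ GCB-like cells 4.02 and, with such classes, 6.86. The mean share of cKO YFP+ pre-GCB-like cells with Tmem176b was 19.1% at 3000 UMIs, 35.7% with no thinning and 12.5% at 1500 UMIs. A fit without 1 library assumes that the lone library of a group varies like the other pair. The causes were not tested.

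Values that changed sign had not been called. In total splenocytes, Tmem176b in naive B-like cells became 0.33 without control replicate 2 (-0.69 to 0.33 without 1 library), and Tmem176a in GCB-like cells -0.53 without control replicate 2 and -0.045 without cKO replicate 1 (-0.53 to 2.67). In CD4 T cell-like cells Tmem176a became 0.43 without control replicate 2 (-0.78 to 0.43) and 0.12 at resolution 1.5, Tmem176b -0.48 without control replicate 1, -0.37 without cKO replicate 2 (-0.48 to 0.97) and -0.15 at resolution 1.5, and Tnip3 -0.54 without cKO replicate 2 (-0.54 to 0.55) and -0.033 with control-set classes. In YFP+ MZB-like cells Tmem176b became 0.053 with the replicate block, 0.29 without cKO replicate 2 (-6.50 to 0.29), 0.10 at resolution 0.5 and 1.34 with classes defined in control libraries. Between pre-GCB-like and naive B-like cells Ryr2 became -0.71 with such classes. In the test of YFP+ against total libraries in naive B-like cells, Gnb4 became -0.40 without total control replicate 2, -0.12 without total cKO replicate 1 and -0.12 without YFP+ cKO replicate 2 (-0.40 to 0.75), and Ryr2 -0.034 without total control replicate 1 and -0.18 without YFP+ cKO replicate 1 (-0.18 to 0.90). Memory B-like cells at resolution 0.5, and all 8 libraries in 1 model for memory B-like and Tfh-like cells, gave no value. With 2 pools a group and control classes of 21 to 63 cells in total GCB-like, plasma cell-like and Tfh-like cells, few UMIs stand behind the low levels.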
